A study of Mus musculus with 6 samples.

Results

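The cathepsin genes CTSA, CTSB, CTSC, CTSD, CTSF, CTSH, CTSK, CTSL, CTSS and CTSZ were examined in RNA-Seq of a prostate cancer line selected for resistance to an antibody-drug conjugate (ADC). They were chosen by gene symbol from the 58735 genes of the deposited count table, and all 10 symbols matched 1 gene each. The samples were 3 libraries of parental 22Rv1, a human prostate cancer cell line cultured with vehicle, and 3 libraries of 22Rv1 BL-B01D1_R, a subline of it cultured in rising concentrations of BL-B01D1. BL-B01D1 is a bispecific ADC against EGFR and HER3 that carries the camptothecin-derived topoisomerase I inhibitor Ed-04 on a cleavable tetrapeptide linker. No gene was engineered in either line. The subline came from 1 selection, so the libraries were samples of 1 line in each group, and the sources used here do not say whether they came from separate cultures. P values therefore measured only the spread between these libraries, and effects of drug exposure, selection and drift between the lines cannot be told apart. Although the organism field of the labels reads mouse, the table lists human gene identifiers on hg38, and it was read as human.

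Cathepsins are peptidases that work mostly inside lysosomes, where they break down proteins delivered by endocytosis and autophagy. Most are papain-like cysteine peptidases, whereas CTSD is an aspartic and CTSA a serine peptidase, and most are made as inactive precursors that are cut to the mature enzyme in the acid lumen. An internalized ADC with a peptide linker relies on such lysosomal peptidases to free its payload, and CTSB is the one best known for cutting dipeptide linkers, with CTSL and other cysteine cathepsins able to share that work. Which of these enzymes cut the linker of BL-B01D1 is not given in the sources used here. The measurements are of mRNA, and neither enzyme activity nor payload release was analysed here.

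Total counts on genes ranged from 13821639 to 17251491 per library. At these depths 3 counts, taken as the limit that a count of 0 allows, corresponded to between 0.174 and 0.216 CPM, the unit of counts per 1e6 after TMM adjustment of library sizes. Such limits cover counting error only. Markers of luminal prostate epithelium were expressed in both lines, with a summed CPM over 10 markers of 3262 to 3329 in parental and 3337 to 3371 in resistant libraries. Single markers moved with the line, with 5 of the 10 higher and 4 lower at a false discovery rate (FDR) of less than 0.05 and log2 fold changes from −0.48 to 0.91. At the same FDR 35.5% of all genes tested passed. The 8 markers of leukocytes and macrophages, cells in which CTSS and other cathepsins are abundant, summed to between 0.432 and 0.953 CPM in every library, with AIF1 and TYROBP at 0. The 5 osteoclast markers, for the cell type known for CTSK, summed to 2.88 to 3.10 CPM in parental and 1.85 to 2.45 CPM in resistant libraries. TNFRSF11A made up most of this, with 37 to 44 counts in parental and 19 to 32 in resistant libraries. Its groups did not overlap, and it did not pass (log2 fold change −0.58, FDR 0.0872). OSCAR had 3 to 14 counts, and DCSTAMP was at 0. The sum of the 6 fibroblast markers also moved with the line, from 111 to 115 CPM in parental to 39.6 to 44.3 CPM in resistant libraries. Most of that sum was LUM, which encodes the matrix proteoglycan lumican and fell from 96.0 to 28.8 CPM (log2 fold change −1.74, FDR 1.11e-26). Without LUM the sum went from 16.6 ± 1.16 to 13.8 ± 0.21 CPM (SD, n = 3 each). COL1A1 had 164 to 259 counts per library and a log2 fold change of −0.28 (FDR 0.0348), a call lost without parental library 2, resistant library 1 or resistant library 2 (FDR 0.0806 to 0.175) and with DESeq2 (FDR 0.102), limma on log2(FPKM + 1) (FDR 0.113) or no filter (FDR 0.0698). DCN had 11 to 29 counts, COL3A1 7 to 15, COL1A2 0 to 2, and FAP was at 0. The part of these markers in the cathepsin values was not tested.

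In both lines 8 cathepsins were well expressed, whereas CTSK was scarce and CTSS almost absent. Levels were compared between genes in FPKM, which are CPM divided by the length of the gene in kilobases as the table lists it. CTSZ, a carboxypeptidase, had the highest level in both lines, at 35.1 ± 1.81 FPKM (SD, n = 3) in parental and 36.9 ± 0.81 FPKM (SD, n = 3) in resistant libraries. CTSF and CTSL followed in parental cells at 21.3 ± 0.51 and 20.5 ± 0.76 FPKM (SD, n = 3 each), with ranges that overlapped. In resistant cells CTSF stood at 21.6 ± 0.49 FPKM (SD, n = 3), above CTSL at 17.4 ± 0.52 FPKM (SD, n = 3) without overlap, and the range of CTSL overlapped that of CTSD.

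CTSB and CTSD had parental levels of 14.4 ± 0.26 and 14.3 ± 0.65 FPKM (SD, n = 3 each) with overlapping ranges. In resistant libraries CTSD, at 17.3 ± 0.78 FPKM (SD, n = 3), lay above CTSB, at 16.0 ± 0.24 FPKM (SD, n = 3), and the lowest CTSD library (16.5 FPKM) only just cleared the highest CTSB library (16.3 FPKM). CTSA, CTSH and CTSC were lower, at 10.5 ± 0.15, 8.16 ± 0.29 and 3.90 ± 0.17 FPKM (SD, n = 3 each) in parental libraries, and CTSK was at 1.00 ± 0.33 FPKM (SD, n = 3). By reads alone the order differed, and CTSB led with 1505 to 1951 counts per library. The table lists long exon lengths for CTSC (11421 bases), CTSB (7428 bases), CTSH (5892 bases) and CTSA (5856 bases), against 2038 bases for CTSZ, and the FPKM order rests on these lengths.

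**Figure D1:**
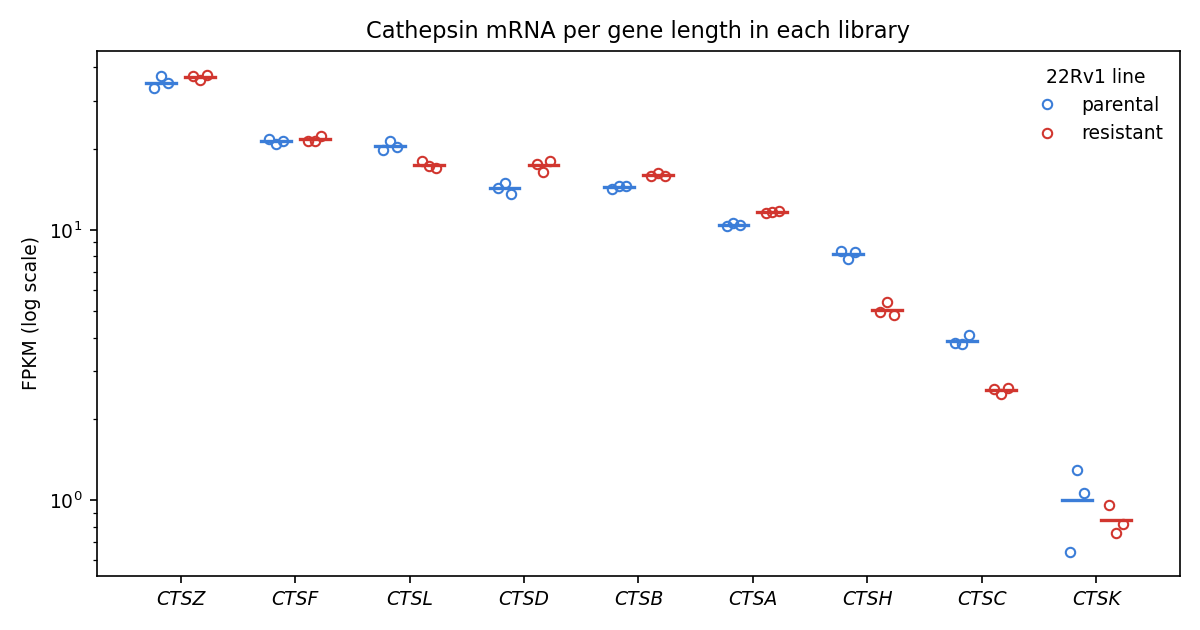
Level of 9 cathepsin mRNAs in FPKM on a log axis, with 1 circle per library and a line at the mean of the 3 parental (blue) or 3 resistant (red) libraries; CTSS, with at most 1 count in any library, is left out. CTSZ is highest in both lines, and the red circles of CTSH and CTSC lie clear below the blue ones.

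Between the lines, the cathepsins did not move as a block. Of the 9 that had enough counts to be tested, 3 were higher in resistant cells at an FDR of less than 0.05 (CTSA, CTSB and CTSD), 3 were lower (CTSC, CTSH and CTSL) and 3 did not pass (CTSF, CTSK and CTSZ). Of all 17142 genes tested, 35.5% passed the same threshold, 17.1% as higher and 18.4% as lower in resistant cells. Among the 4309 genes whose mean CPM lay in the range of the 8 well-expressed cathepsins, the share was 43.6%, beside 6 of these 8 cathepsins. The parental and resistant libraries did not overlap in CPM for these 6 of 9 cathepsins, and for 44.8% of all genes tested. The median log2 fold change was 0.02 over the 9 cathepsins tested and 0.0038 over all genes tested. No cathepsin reached the thresholds of the study's methods, an FDR of less than 0.05 with an absolute log2 fold change greater than 1, which 5.37% of all genes tested did. That count was 0 with edgeR's quasi-likelihood test, limma-voom and DESeq2, and also 0 at an unadjusted p under 0.05, where 6 cathepsins passed without the fold-change limit. The 95% interval of each of the 9 log2 fold changes lay inside −1 to 1.

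**Figure D2:**
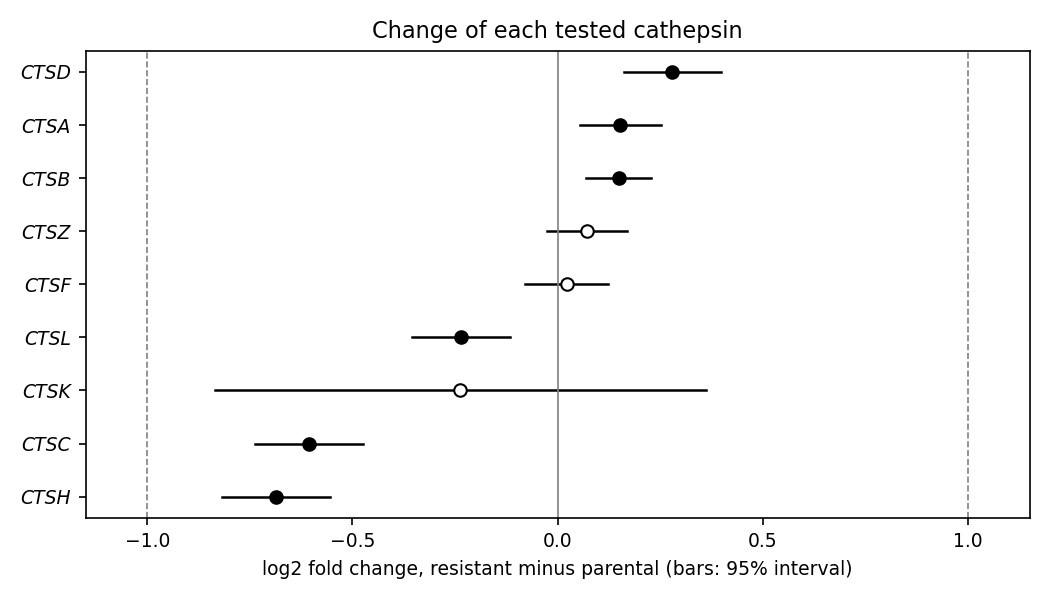
Log2 fold change of the 9 tested cathepsins, resistant minus parental, with bars for the 95% interval from edgeR's quasi-likelihood fit; filled circles have an FDR of less than 0.05 and dashed lines mark −1 and 1. CTSD, CTSA and CTSB lie right of 0, CTSL, CTSC and CTSH lie left of it, and CTSK has the widest bar.

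Among the cysteine endopeptidases, CTSB and CTSL moved in opposite directions. CTSB (ENSG00000164733; chromosome 8 of hg38, 11842524 to 11869448, reverse strand) cuts both inside proteins and, as a carboxypeptidase, dipeptides from their ends. It was at 105, 108 and 108 CPM in parental and 118, 121 and 118 CPM in resistant libraries. All resistant libraries lay above all parental ones, and within each line the libraries were close. The mean rose from 107 ± 1.96 to 119 ± 1.80 CPM (SD, n = 3 each), a log2 fold change of 0.15 (SE 0.039, FDR 0.00228), or 10.8% with a 95% interval of 4.95% to 17.1%. The intronic gene AC025857.2 within it held 5 to 11 counts.

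CTSL (ENSG00000135047; chromosome 9, 87725519 to 87731393, forward strand) is a strong endopeptidase that also helps to mature other lysosomal enzymes. Its mRNA was at 47.0, 50.5 and 48.1 CPM in parental and 42.6, 40.7 and 40.2 CPM in resistant libraries. Every resistant library lay below every parental one. The log2 fold change was −0.24 (SE 0.059, FDR 0.00149), a change of −15.1% with a 95% interval of −21.9% to −7.73%. Each annotated pseudogene of CTSL held 0 to 12 counts per library, against 599 to 848 for CTSL. How the authors treated reads that fit several genes is not given in the sources used here.

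The balance of CTSL to CTSB can be read within a library, free of any scaling between libraries. Per 100 CTSB counts, CTSL had 44.7, 46.5 and 44.3 counts in parental libraries and 36.2, 33.7 and 34.1 in resistant libraries. The groups did not overlap, which had to follow because CTSB lay above and CTSL below in every resistant library.

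CTSF (ENSG00000174080; chromosome 11, 66563463 to 66568841, reverse strand), an endopeptidase with an unusually long propeptide, was at 63.1, 60.2 and 62.0 CPM in parental and 62.1, 61.7 and 64.3 CPM in resistant libraries. The ranges of the groups overlapped in part. Its log2 fold change of 0.02 (SE 0.051, FDR 0.787) had a 95% interval from −5.44% to 8.95%. That interval covers only the spread between these libraries under TMM scaling. On the scale of TPM, which divides FPKM by their sum over all genes, CTSF changed by −3.76%.

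CTSK and CTSS, endopeptidases known from osteoclasts and from antigen-presenting cells, were scarcely expressed. CTSK (ENSG00000143387; chromosome 1, 150796208 to 150808323, reverse strand) had 21, 41 and 28 counts in parental and 30, 21 and 25 counts in resistant libraries. The groups overlapped, and parental library 2 alone held the highest value. Its log2 fold change of −0.24 (SE 0.296, FDR 0.582) had a 95% interval from −44.0% to 28.4%, and it was 0.0048 without parental library 2. CTSS (ENSG00000163131; chromosome 1, 150730196 to 150765957, reverse strand) had 0, 0 and 1 counts in parental and 0, 0 and 1 counts in resistant libraries. It was not tested, and no fold is given because both lines were under the limit of 3 counts.

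The largest changes among the 9 tested were in the aminopeptidases CTSH and CTSC, which trim proteins from the amino end. CTSH (ENSG00000103811; chromosome 15, 78921058 to 78949574, reverse strand) removes single residues. It was at 49.1, 46.1 and 49.0 CPM in parental and 29.3, 31.8 and 28.5 CPM in resistant libraries. The lowest parental library stood well above the highest resistant one. The mean fell from 48.1 ± 1.72 to 29.9 ± 1.71 CPM (SD, n = 3 each), a log2 fold change of −0.69 (SE 0.065, FDR 1.17e-11), or −37.9% with a 95% interval of −43.3% to −32.0%. Of all genes tested, 4.58% had an FDR of less than 0.05 and a log2 fold change as low as this or lower.

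CTSC (ENSG00000109861; chromosome 11, 88293592 to 88337787, reverse strand), also called dipeptidyl peptidase I, removes dipeptides and activates serine peptidases of immune cell granules. It was at 43.7, 43.1 and 46.7 CPM in parental and 29.4, 28.3 and 29.8 CPM in resistant libraries. The groups were again far apart compared with the spread within them. The mean fell from 44.5 ± 1.92 to 29.2 ± 0.80 CPM (SD, n = 3 each), a log2 fold change of −0.61 (SE 0.065, FDR 3.75e-10), or −34.3% with a 95% interval of −40.0% to −28.0%. A log2 fold change this low or lower, at the same FDR, was reached by 5.19% of all genes tested. In FPKM summed over both aminopeptidases, the lines stood at 12.1 ± 0.41 and 7.63 ± 0.22 (SD, n = 3 each).

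CTSZ (ENSG00000101160; chromosome 20, 58995185 to 59007247, reverse strand) trims single residues from the carboxyl end. It was at 68.1, 75.4 and 71.1 CPM in parental and 75.4, 73.4 and 76.6 CPM in resistant libraries. Parental library 2 reached into the resistant range, so the groups overlapped. The log2 fold change was 0.07 (SE 0.048, FDR 0.273), with a 95% interval from −1.86% to 12.4%.

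The aspartic and the serine member were both higher in resistant cells. CTSD (ENSG00000117984; chromosome 11, 1752752 to 1764573, reverse strand), the main aspartic peptidase of lysosomes, was at 44.7, 46.6 and 42.6 CPM in parental and 55.1, 51.5 and 56.1 CPM in resistant libraries. The groups did not overlap. The log2 fold change was 0.28 (SE 0.058, FDR 1.48e-04), a rise of 21.4% with a 95% interval of 11.9% to 31.7%. The overlapping genes AC068580.3, AC068580.1 and AC068580.4 held at most 7 counts in any library.

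CTSA (ENSG00000064601; chromosome 20, 45890144 to 45898820, forward strand) is a serine carboxypeptidase that also shields the glycosidases GLB1 and NEU1 in a complex. It was at 60.7, 62.4 and 61.0 CPM in parental and 67.7, 68.1 and 69.0 CPM in resistant libraries. The resistant libraries all lay higher, with little spread in either line. The log2 fold change was 0.15 (SE 0.049, FDR 0.0127), a rise of 11.2% with a 95% interval of 3.78% to 19.1%. Of its overlapping genes on the other strand, NEURL2 held 12 to 25 counts per library and AL008726.1 at most 2. The 3′ end of CTSA overlaps PLTP, a phospholipid transfer protein gene, which went from 316, 249 and 237 counts in parental to 100, 80 and 100 counts in resistant libraries. PLTP thus moved the other way (log2 fold change −1.51, FDR 1.06e-13). Whether counting used strand is not given in the sources used here, and the part of overlapping reads in the CTSA value was not tested.

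**Figure D3:**
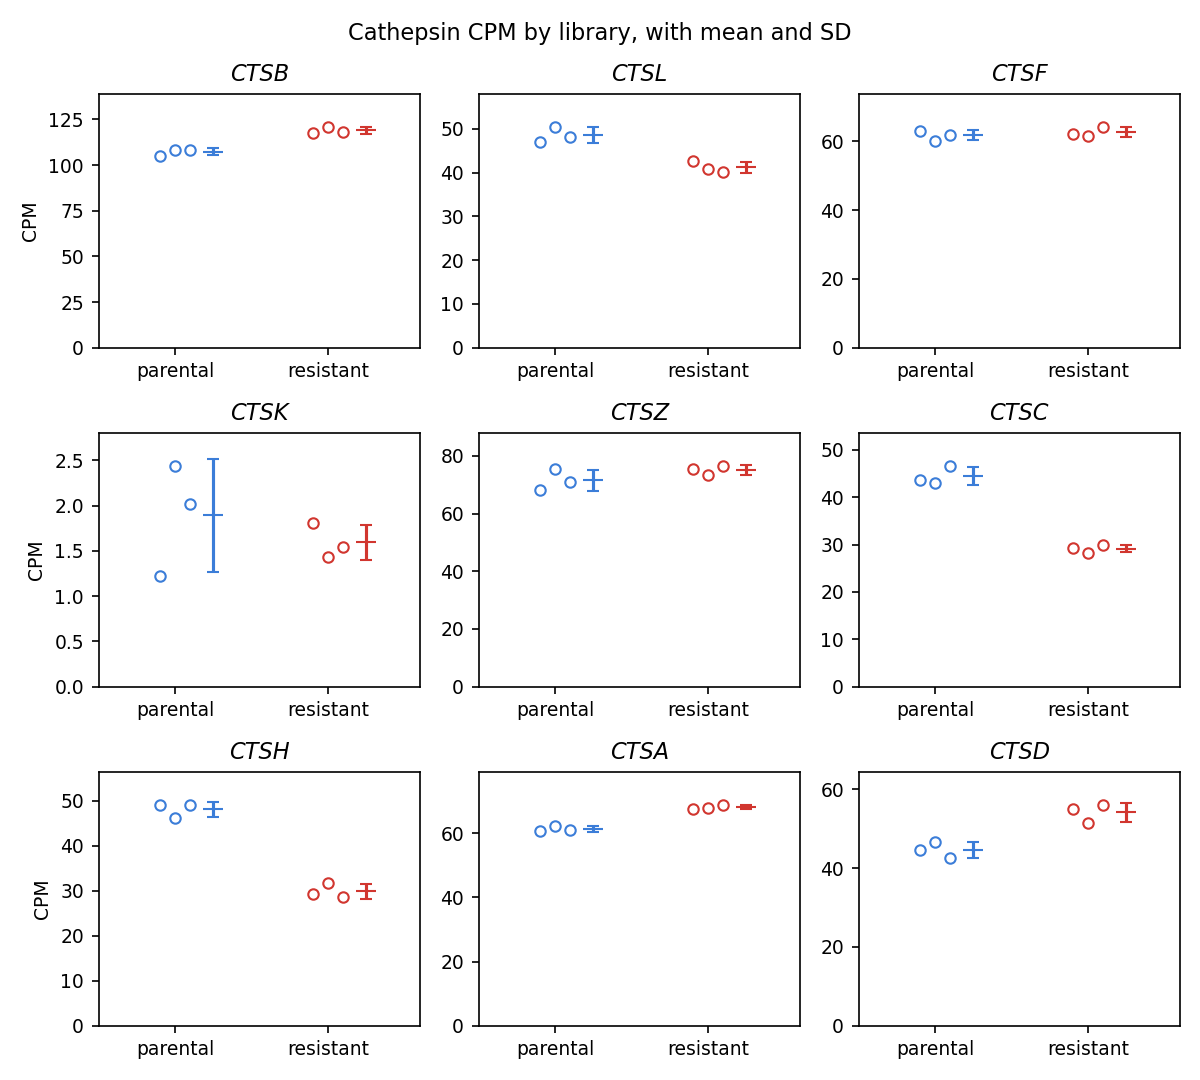
CPM of the 9 tested cathepsins in each parental (blue) and resistant (red) library, 1 circle per library, with the mean and SD beside them and every axis starting at 0. CTSC and CTSH show the clearest gaps, CTSB, CTSA and CTSD sit slightly higher in red, and CTSF and CTSZ overlap.

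Rises and falls offset each other in the total taken as summed FPKM, but not in every form of the total. FPKM summed over the 10 cathepsins was 127, 132 and 129 in parental and 130.0, 128 and 131 in resistant libraries. The groups overlapped, and the means of 129 ± 2.79 and 129 ± 1.68 (SD, n = 3 each) differed by 0.142%. In TPM, which divides by the FPKM sum over all genes, the cathepsin sum changed by −5.04% in resistant cells, because that overall sum was 5.46% higher there. On the TPM scale CTSB, CTSA and CTSD were 5.09%, 5.43% and 15.2% higher, while CTSZ changed by −0.450%. The makeup shifted within the FPKM sum of the 10 cathepsins. CTSL went from 15.9% ± 0.25 to 13.5% ± 0.42 of it (SD, n = 3 each). CTSH went from 6.32% ± 0.35 to 3.92% ± 0.28 and CTSC from 3.02% ± 0.16 to 1.97% ± 0.028 (SD, n = 3 each). CTSD went up from 11.1% ± 0.41 to 13.4% ± 0.43 and CTSB from 11.2% ± 0.15 to 12.4% ± 0.35 (SD, n = 3 each). CTSZ went up from 27.2% ± 0.81 to 28.5% ± 0.26 and CTSA from 8.11% ± 0.065 to 9.01% ± 0.11 (SD, n = 3 each).

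Other cathepsins were at low levels or absent. CTSO, a cysteine peptidase, rose from 6.64 ± 0.70 to 9.81 ± 0.39 CPM (SD, n = 3 each), with a log2 fold change of 0.57 (FDR 5.93e-04). CTSV, the close relative of CTSL, had a log2 fold change of −0.48 and did not pass (FDR 0.0607), although its groups did not overlap. CTSE, CTSG and CTSW, with at most 14 counts in any library, were not tested.

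Of 14 cathepsin inhibitors, the cystatins and related serpins, 4 could be tested and 1 passed, beside 35.5% of all genes tested. CST3, the secreted inhibitor cystatin C, rose from 88.8 ± 5.49 to 111 ± 5.70 CPM (SD, n = 3 each), with a log2 fold change of 0.32 (SE 0.046, FDR 2.62e-07). CSTB, the cytosolic cystatin B, had a log2 fold change of 0.10 (FDR 0.0985).

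Among 10 further lysosomal peptidases and partners of cathepsins, 3 were higher, 3 were lower and 4 did not pass. The share past the FDR was 60%, beside 35.5% of all genes tested. LGMN, the asparaginyl endopeptidase that processes several cathepsins, fell by 0.32 on the log2 scale (FDR 3.18e-04), from 774, 705 and 638 counts to 645, 450 and 595. GGH, a cysteine peptidase that removes glutamates from folates, fell by 0.31 (FDR 3.73e-06), and GLB1, the galactosidase held in a complex by CTSA, fell by 0.21 (FDR 0.0049). DPP7, a serine dipeptidyl peptidase, had a log2 fold change of 0.27 (FDR 2.95e-09) and PSAP, the precursor of the saposins, 0.26 (FDR 4.21e-10). TPP1, a tripeptidyl peptidase, had 0.14 (FDR 0.0124), a call that was lost without parental library 2 (FDR 0.0535) or resistant library 2 (FDR 0.0633).

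Genes that carry lysosomal enzymes to their place also split. Of 16 such genes, all tested, 5 were higher, 4 were lower and 7 did not pass, with a median log2 fold change of 0.04. The share past the FDR was 56.25%, beside 35.5% of all genes tested. SORT1, a sorting receptor that binds cathepsins and PSAP among others, rose from 94.2 ± 3.77 to 128 ± 3.87 CPM (SD, n = 3 each), with a log2 fold change of 0.44 (FDR 7.08e-12). GNPTG, a subunit of the enzyme that starts the mannose 6-phosphate tag, had a log2 fold change of 0.30 (FDR 2.52e-04). LMAN1, which carries glycoproteins such as cathepsins out of the endoplasmic reticulum, fell by 0.46 on the log2 scale (FDR 1.46e-12). Its partner MCFD2 fell by 0.25 (FDR 9.31e-05). The call of NAGPA, the enzyme that uncovers the mannose 6-phosphate tag (log2 fold change −0.32, FDR 0.00844), was lost without resistant library 1 (FDR 0.0763) and with limma on log2(FPKM + 1) (FDR 0.0708).

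A list of 30 other lysosomal genes, mostly hydrolases such as those for sugars, lipids and sulfates, had more members higher than lower. It also holds NPC2, GM2A and HGSNAT, which are not hydrolases. Of these NPC2 was called higher (log2 fold change 0.21, FDR 0.0032), and GM2A and HGSNAT did not pass. All 30 genes were tested, 13 were higher, 3 were lower and 14 did not pass. The median log2 fold change was 0.10, against 0.02 for the cathepsins. The share past the FDR was 53.3%. Of all genes tested, 35.5% passed, 17.1% as higher and 18.4% as lower. The difference between these medians was not tested. MAN2B1, the lysosomal alpha-mannosidase, rose from 41.9 ± 3.62 to 64.6 ± 2.95 CPM (SD, n = 3 each), with a log2 fold change of 0.63 (FDR 1.68e-11). PPT1, a thioesterase that removes fatty acids from proteins, was among the lower ones at −0.13 (FDR 0.00925) and lost its call without resistant library 2 (FDR 0.0938). ACP5 had a log2 fold change of 1.03 (FDR 0.036) from 9 to 23 counts per library, and IDUA had 0.45 (FDR 0.0126). IDUA missed the threshold without parental library 1 or 2 or resistant library 2 (FDR 0.0501 to 0.0677), and ACP5 without any of the libraries but resistant library 1 (FDR 0.0537 to 0.171). The call of ACP5 was also lost with DESeq2 (FDR 0.105), no filter (FDR 0.0542) and the replicate block (FDR 0.0508).

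Of 9 regulators of lysosomal gene expression and signalling, 8 were tested, 3 were higher and none was lower. The share past the FDR was 37.5%, beside 35.5% of all genes tested. TFEB, the transcription factor best known for switching on lysosomal genes, had a log2 fold change of −0.19 (FDR 0.136) and did not pass. MCOLN1, a calcium channel of the lysosomal membrane, had 0.35 (FDR 1.17e-04) and RRAGC, a small GTPase of the amino acid signal to mTOR, 0.32 (FDR 0.00384). FLCN, a partner of these GTPases, had 0.22 (FDR 0.0156), which was lost without parental library 2 (FDR 0.0782) or resistant library 3 (FDR 0.165) and with DESeq2 (FDR 0.0508) or limma on log2(FPKM + 1) (FDR 0.136).

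**Figure D4:**
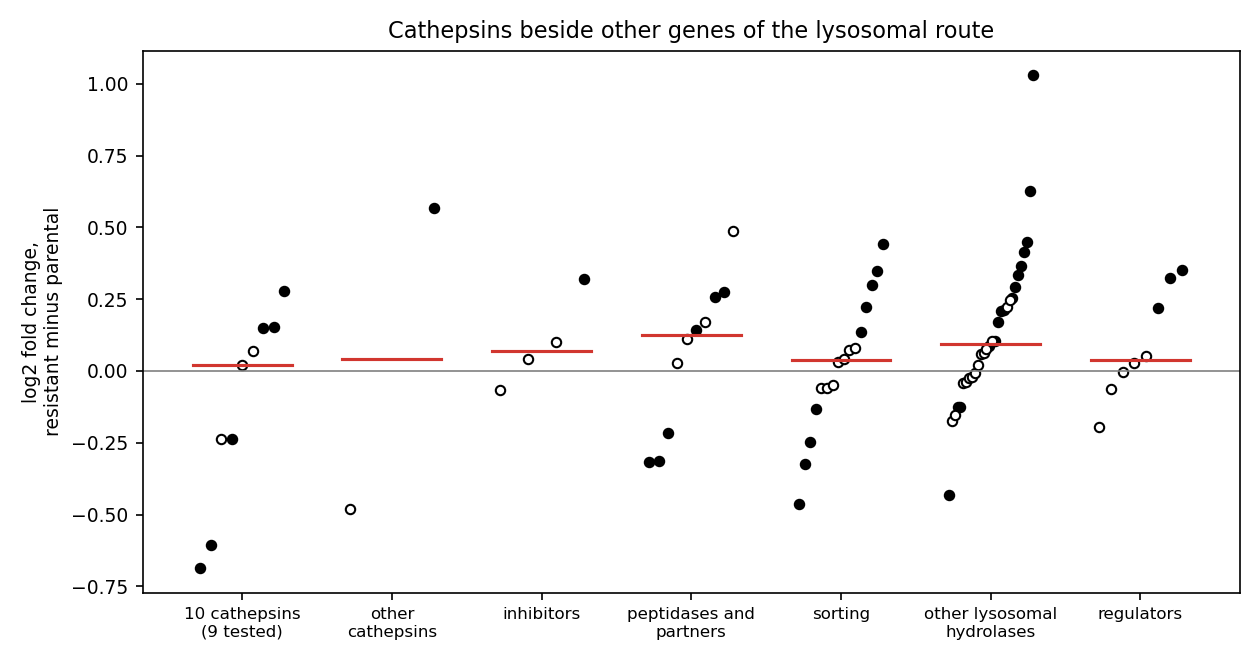
Log2 fold change, resistant minus parental, of each tested gene in 7 lists, with filled circles for an FDR of less than 0.05 and a red line at the median of each list. The cathepsins reach from −0.69 to 0.28. The list labelled other lysosomal hydrolases, which also holds NPC2, GM2A and HGSNAT, has more filled circles above 0 than below.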

How the data were processed

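RNA-Seq libraries of parental 22Rv1 (n = 3) and 22Rv1 BL-B01D1_R (n = 3) were grouped by their sample titles. The authors mapped reads to hg38 with HISAT2 (2.0.5) and counted them per gene with featureCounts (1.5.0-p3), as the submitters' processing notes also list. The deposited counts are not normalized. The annotation release is not given in the sources used here. Gene lengths, another quantity in the deposited table, were used for FPKM. Columns of per-sample values left unused numbered 0.

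Genes were filtered with filterByExpr, scaled by TMM and tested by quasi-likelihood in edgeR (4.0.16, under R 4.3.3) with Benjamini-Hochberg adjustment over 17142 genes. FDR values in the text come from this fit. SE was the log2 fold change divided by the square root of F, and 95% intervals used the t distribution of the fit. Replicate pairs differed beyond sampling noise (chi-square per degree of freedom 1.77 to 2.45), so all 6 libraries were kept. The cathepsins and the gene lists were chosen with earlier results of these data known. From each list, up to 3 genes with the highest and 3 with the lowest log2 fold change among those passing the FDR were named, beside all 10 cathepsins and genes overlapping them, and some genes this rule selects are not reported here. CSTB, CTSV, TFEB and marker genes were named outside this rule, after their values were seen. Alternatives were limma (3.58.1) with voom or on log2(FPKM + 1), DESeq2 (1.42.0), other scalings and filters, glmTreat, protein-coding genes only, the replicate number as a block and each library left out. The scripts were tested on simulated data. No human sequence was used here.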

Additional observations from a re-analysis of the deposited data

How the results depend on the processing

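The 6 cathepsin calls, 3 higher and 3 lower, kept their direction and an FDR of less than 0.05 with limma-voom, DESeq2, limma on log2(FPKM + 1), RLE or library-size scaling, both other filters, protein-coding genes only, the replicate block and each library left out. CTSH ranged from −0.73 to −0.59 and CTSC from −0.63 to −0.46 on the log2 scale over these fits. The ends at −0.59 and −0.46 came from limma on log2(FPKM + 1), which adds 1 to FPKM and is not the same scale as the count fits. With a library left out, CTSH ranged from −0.73 to −0.65 and CTSC from −0.63 to −0.57. CTSA came closest to the threshold, with an FDR of 0.0435 in 1 of the leave-one-out fits. glmTreat, which tests against an absolute log2 fold change of 1, called 0 cathepsins and 0 of the other list genes in either direction, where the usual test called 26 of the other list genes higher and 10 lower at the same FDR. At an unadjusted p under 0.05, glmTreat passed 0 cathepsins and 0 other list genes, and the usual test 6 and 42. CTSK, which was not called, had a log2 fold change of 0.0048 without parental library 2 and ranged from −0.49 to 0.0048 with a library left out. Of 26 other genes that the naming rule or an overlap selects, or that are fibroblast markers past the FDR, 9 lost their call in at least 1 fit besides glmTreat.

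The count of other list genes past a log2 fold change of 1, which was 1 (ACP5), became 0 with limma-voom, DESeq2, limma on log2(FPKM + 1), no filter, a minimum of 10 counts per library, glmTreat and the replicate block, and ranged from 0 to 1 with a library left out. The difference in summed FPKM, 0.142%, was −5.04% in TPM and −1.67% without CTSZ, and ranged from −0.821% to 1.32% with a library left out. ACP5 had 9 counts in parental library 2, so the minimum of 10 counts left it out of that fit. Apart from this filter, the TPM divisor and the wider null of glmTreat, the cause of each change was not tested.

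With the replicate block, 3 cathepsins were higher and 3 lower, CTSH had a log2 fold change of −0.69 and CTSC of −0.61. The sources give no pairing of the cultures. Deviations of same-numbered libraries correlated at −0.0196 to −0.0081, so no pairing by number was seen. With 3 libraries per line this cannot show that none existed. Counts near those of CTSK and CTSS limit what can be seen.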
